A study of Mus musculus with 92 samples.

Results

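The livers of untreated female and male CD-1 mice were compared with each other, using 18 of the 92 libraries of a study of HFPO-DA. The animals were chosen by label: all mice that received 0 mg/kg, except 1 female library with a total of 403108 counts. They were 5 females and 4 males given 0 mg/kg by oral gavage each day for 9 months, and 4 females and 5 males treated the same way for 18 months. CD-1 is an outbred stock, and the labels give the genotype of every animal as WT. HFPO-DA is a fluorinated ether acid used to make fluoropolymers, and treated animals received it for 9 or 18 months at 5 mg/kg or at the lower doses of 0.5, 0.1 and 0.05 mg/kg. RNA came from sections of formalin-fixed, paraffin-embedded liver, was measured with the probe-based TempO-Seq assay, and gave 1 library per animal. Of 673 genes listed for hepatic metabolism, 672 had a probe, 11 of these lie on the X or Y chromosome and were left out, and the 661 autosomal genes are described here. That is 661 of the 21400 gene symbols in the table. After a filter on low counts 550 of the 661 could be tested, and the other 111 could not.

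Liver is one of the most sexually dimorphic organs of the mouse. The pituitary releases growth hormone in separated pulses in males and more continuously in females, and the hepatocyte reads this pattern through the growth hormone receptor and the transcription factor STAT5B. Many cytochromes P450, sulfotransferases and steroid dehydrogenases follow that signal, with the male-biased repressor BCL6 and the female-biased repressor CUX2 also taking part. These enzymes oxidise or conjugate steroids, bile acids, fatty acids and drugs.

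STAT5 binds the palindrome TTCNNNGAA, which reads the same on both strands. RefSeq promoter windows of build GRCm38.p6, 250 bases before to 50 after a gene's start, were searched for it. It was found in 7 of 54 genes called higher in females that had a window (13%) and in 4 of 30 called higher in males (13.3%). The share was 8.29% of the 350 genes of the lists that were tested and not called, and 9.55% of all 27025 genes with a window. For 4 genes whose expression is described below, the 250 bases before the start are shown with each match in capitals, because they are the regulator Bcl6, the hormone receptor Prlr, and a conjugating enzyme and a transporter gene higher in females. A match describes the letters and is not a measured binding site. The windows are, on the strand of the gene, Bcl6 at chr16:23981284-23981533 (minus strand, 1 of 2 windows), Prlr at chr15:10223656-10223905 (plus strand, 1 of 3 windows), Sult3a1 at chr10:33857472-33857721 (plus strand) and Slc22a26 at chr19:7802668-7802917 (minus strand).
Bcl6: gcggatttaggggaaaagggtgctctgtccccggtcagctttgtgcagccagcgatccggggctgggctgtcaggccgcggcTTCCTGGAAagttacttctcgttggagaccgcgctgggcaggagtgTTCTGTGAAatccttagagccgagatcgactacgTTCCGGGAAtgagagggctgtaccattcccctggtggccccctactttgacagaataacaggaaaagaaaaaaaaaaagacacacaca
Prlr: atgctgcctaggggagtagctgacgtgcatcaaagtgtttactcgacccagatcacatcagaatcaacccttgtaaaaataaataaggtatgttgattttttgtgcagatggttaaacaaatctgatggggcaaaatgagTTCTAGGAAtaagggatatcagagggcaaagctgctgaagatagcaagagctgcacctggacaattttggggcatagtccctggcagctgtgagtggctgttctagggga
Sult3a1: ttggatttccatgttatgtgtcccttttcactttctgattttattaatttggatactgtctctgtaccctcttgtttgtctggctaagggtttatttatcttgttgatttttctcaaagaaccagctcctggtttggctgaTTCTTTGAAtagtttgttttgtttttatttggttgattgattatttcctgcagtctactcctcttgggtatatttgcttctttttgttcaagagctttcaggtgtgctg
Slc22a26: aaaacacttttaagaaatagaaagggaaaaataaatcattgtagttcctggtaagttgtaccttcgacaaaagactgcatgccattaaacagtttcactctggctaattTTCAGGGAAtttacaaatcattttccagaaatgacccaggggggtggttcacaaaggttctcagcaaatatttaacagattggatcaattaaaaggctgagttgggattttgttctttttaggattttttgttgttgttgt
The Bcl6 window held 3 matches, starting at -168, -122 and -88 from the gene's start. Each of the others held 1, at -110 in Prlr, -109 in Sult3a1 and -141 in Slc22a26.

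Total counts ran from 4929678 to 6546745 in the 9-month libraries and from 9234451 to 17638156 in the 18-month libraries, with 11576 to 13985 genes detected. Duration therefore goes together with age and with depth, and a difference between durations cannot be told apart from these. The summed level of 4 Y-linked genes was 63.1 to 86 CPM (counts scaled to a fixed library total) in the 9 males and at most 0.705 CPM in the 9 females. Macrophage markers differed between the sexes: 6 of 11 tested were called higher in females (C1qa, C1qb, Cd5l, Cd68, Csf1r and Lyz2). Their summed level was 334 to 1540 CPM in females, median 475, and 216 to 514 CPM in males, median 263. Of 8 lymphocyte markers tested 1, Cd3d, was called higher in females, with a summed level of 27.1 to 583 CPM in females and 25.6 to 94.5 CPM in males. The blood cell sum was 37.4 to 1340 CPM in females, median 129, and 47.8 to 193 CPM in males, median 85.3. In whole-tissue RNA, fewer cells of a type and less RNA per cell cannot be told apart, and the part of these markers in the results below was not tested.

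Male 18 months replicate 5 stood apart in fetal, pericentral, periportal and other markers. Its Afp, a fetal liver protein, was 340 CPM against at most 17.3 CPM in the other 17 libraries, and its Gpc3, a fetal proteoglycan also made by liver tumours, was 292 CPM against at most 3.53 CPM. Its Cyp2e1, an enzyme of hepatocytes around the central vein, was 464 CPM, where the other males ran from 4990 to 13200 CPM. A summed list of 12 pericentral genes was 663 CPM in it and 6100 to 15000 CPM in the other 8 males. The sum of 12 periportal genes was also low, 6170 CPM against 12200 to 20500 CPM in those males. Its bile duct, stellate and matrix, and hepatocyte marker sums were 214, 477 and 116000 CPM. Those males had at most 57.6, 279 and 55400 CPM. Its Y-linked sum of 76.3 CPM fell within the range of the other males. Female 9 months replicates 1 and 3 stood apart in blood and lymphocyte markers. Their blood cell sums were 1340 and 849 CPM, against at most 282 CPM in the other 16 libraries, and their lymphocyte sums 583 and 463 CPM, against at most 292 CPM. Slc4a1, the anion exchanger of red cells, was 108 and 132 CPM in them and at most 2.19 CPM elsewhere, and Cd79a, a B cell receptor chain, was 125 and 95.5 CPM, elsewhere at most 18.7 CPM. Female 18 months replicates 2 and 4 had the highest macrophage sums, 1540 and 1160 CPM, against at most 642 CPM in the other 16 libraries. Their endothelial sums were 947 and 1040 CPM, elsewhere at most 571 CPM. Their hepatocyte marker sums were 135000 and 108000 CPM, where the other females had at most 59700 CPM. The part of these markers in the results was not tested. Counts without both 9-month females are given below, while these 18-month females were left out only 1 at a time. Results are given with male 18 months replicate 5, and without it where that matters.

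Of the 550 genes tested, 70 were called higher in females and 38 higher in males, which is 19.6%. Over all 11517 genes tested, 461 were higher in females and 408 higher in males, which is 7.55% called (4% and 3.54% in the 2 directions). A gene was called at an adjusted p under 0.05 in edgeR's quasi-likelihood test with Benjamini-Hochberg adjustment over all genes tested, with duration as a block. The median fold among called genes was 3.52 for those higher in females and 3.27 for those higher in males, and 32 and 18 of them differed by at least 4-fold. The median log2 difference, female minus male, was 0.12 over the 550 genes and 0.02 over all genes. Without male 18 months replicate 5, 89 were higher in females and 55 higher in males of 546 tested, against 11.4% of all genes called (6.62% and 4.8%), and the 108 calls remained and 36 were added. Without both females high in blood and lymphocyte markers, 67 were higher in females and 27 higher in males of 557 tested, against 5.17% of all genes called (2.86% and 2.32%). By list, leaving aside the lists of known sex-biased genes, the share called ran from 5.13% in glucose metabolism to 66.7% in sulfotransferases. It was near the share of all genes in fatty acid oxidation and lipid transport. In 49 called genes measured by more than 1 tested probe, the probes had the same direction in all 49.

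Groups of 9 and 9 libraries did not overlap at all in 19 genes higher in females and 5 higher in males, 4.36% of those tested against 0.634% of all genes (0.356% and 0.278%). Leaving out male 18 months replicate 5 raised these to 27 and 19, 8.36% against 1.49% of all genes (0.616% and 0.877%). That library had the lowest level of the 9 males in 29 of the 38 genes higher in males, and lay within the female range in 30. Among the 70 genes higher in females it had the highest male level in 25. On the female side, 18 months replicate 1 was the highest of 9 females in 24 of the 70, and 9 months replicate 1, which was high in blood and lymphocyte markers, the lowest in 29.

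**Figure D1:**
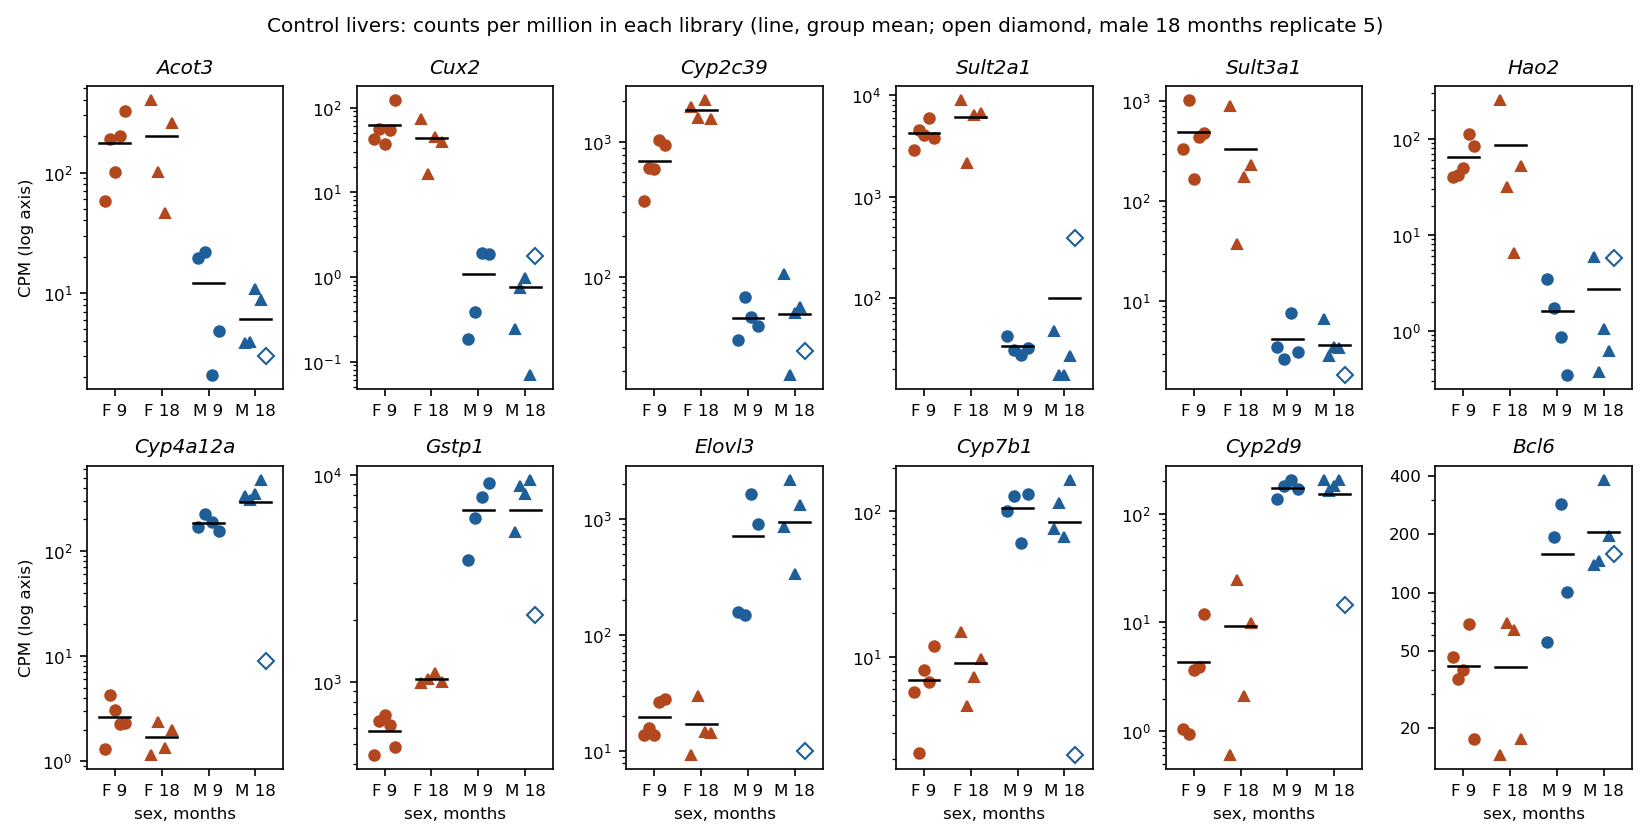
CPM on a log axis for 12 genes in each of the 18 control libraries, by sex (F, M) and months (9, 18), with the group mean as a line, circles for 9 months, triangles for 18 months and an open diamond for male 18 months replicate 5; a library at 0 would not be drawn and there is none. The upper 6 genes are higher in every female library than in every male library, while in the lower row the diamond lies near or among the female values for Cyp4a12a, Elovl3, Cyp7b1 and Cyp2d9.

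Sulfotransferases attach sulfate to steroids, bile acids and drugs. Of 15 Sult genes tested, 9 were higher in females and 1, Sult2a8, was higher in males, and the median log2 difference of the family was 5.48. Sult2a1, which sulfates hydroxysteroids, ran from 2141 to 9020 CPM in females, median 4494, and from 17.3 to 395 CPM in males, median 31.2. The highest male value belonged to replicate 5 at 18 months, the other 4 males of that age had at most 47.3 CPM, and the sexes did not overlap. Its difference was 87.1-fold (log2 6.44 ± 0.68 SE, adjusted p = 1.28e-05), and log2 7.39 without that male. Sult3a1, an amine sulfotransferase, was 37.8 to 1034 CPM in females and 1.82 to 7.61 CPM in males, with medians of 334.1 and 3.43, again without overlap (103-fold, log2 6.69 ± 0.60, adjusted p = 2.99e-06).

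Sult2a5 was 22.7 to 132 CPM in females and 0 to 4.79 CPM in males, an 89.1-fold difference (log2 6.48), which was log2 7.70 without male 18 months replicate 5. Estrogen sulfotransferase, Sult1e1, varied most among females: it was 10.5 to 52.7 CPM in the 5 females at 9 months, and 18.4, 19.2, 385 and 2262 CPM in those at 18 months. Males had 0.915 to 5.66 CPM, so that all females were above all males (log2 6.19 ± 1.14, adjusted p = 0.00396). The difference was log2 4.78 without female 18 months replicate 4, the highest library, and 6.91 without male 9 months replicate 4. Sult2a6 had 644 reads over the 9 females and 1 read over the 9 males, a ratio of pooled rates of 723 with an exact 95% interval of 129 to 28600 that covers counting error alone. At least 1 female also had 0 CPM of it, so the groups overlapped. Female 18 months replicate 1 had 31.4 CPM of Sult2a6, where the other females of that age had at most 3.7 CPM, so the pooled ratio leans on 1 animal. The fitted difference was log2 8.43, with 6.82 without that female and 9.15 without male 18 months replicate 5. Sult2a genes lie close together on chromosome 7 and resemble one another, so how reads were divided among Sult2a1, Sult2a2, Sult2a3, Sult2a5, Sult2a6 and Sult2a7 is uncertain. In the opposite direction, Sult2a8, a liver sulfotransferase of bile acids, was 22 to 301 CPM in females and 23.3 to 782 CPM in males (3-fold, adjusted p = 0.0464). Here the ranges overlapped through male 18 months replicate 5, which had the lowest male value.

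Flavin monooxygenases, which oxidise amines and sulfides, included called genes higher in females. Fmo2 was 7.15 to 16.3 CPM in females and 0.343 to 6.88 CPM in males (2.7-fold, adjusted p = 0.0121), without overlap. Fmo1 overlapped, at 367 to 970.2 CPM against 146 to 509 CPM, and its call (1.86-fold, adjusted p = 0.0294) was lost when any of 3 males was left out.

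Cytochromes P450 were split between the sexes: of 71 tested, 13 were higher in females and 6 higher in males, with a median of 0.12. The female-biased genes were from the Cyp2a, Cyp2b, Cyp2c and Cyp3a subfamilies, with Cyp17a1 and Cyp39a1. Cyp2c39 was 364 to 2054 CPM in females and 18.5 to 104.5 CPM in males, with no overlap (21.9-fold, log2 4.45 ± 0.34, adjusted p = 1.85e-07). Cyp3a16 was 40.5 to 744 CPM in females and 0.274 to 2.54 CPM in males (216-fold, log2 7.75 ± 0.60, adjusted p = 7e-07). Cyp3a41a, from the same gene cluster on chromosome 5, was 396 to 4064 CPM in females and 38.6 to 314 CPM in males, a 7.33-fold difference. The Cyp3a probes may take transcripts of near-identical neighbours such as Cyp3a41b and Cyp3a44, so the split within the cluster is uncertain. Cyp2c69 was 1.06 to 131 CPM in females and at most 0.172 CPM in males (log2 8.62 ± 0.92, adjusted p = 1.63e-05), and the difference was log2 7.57 without female 18 months replicate 1.

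Cyp2b9, a steroid hydroxylase of the phenobarbital-inducible subfamily, was 42.6 to 134 CPM in females, median 73, and 0.412 to 57.7 CPM in males, median 3.44. Its highest male was 18 months replicate 5. The other 4 males of that age had at most 8.64 CPM, and the difference was 11.7-fold (log2 3.55 ± 0.77, adjusted p = 0.0111) with all males and log2 4.66 without that one. Cyp17a1, the steroid 17-hydroxylase and lyase, was 1.77 to 175 CPM in females and 0 to 21.3 CPM in males (log2 4.66 ± 0.97, adjusted p = 0.00868), and the overlap came from the same male, without which the difference was log2 6.49. Cyp2b13 was 0.48 to 34.4 CPM in females and 0 to 1.34 CPM in males (log2 5.37 ± 0.94, adjusted p = 0.00225), and log2 6.00 without male 18 months replicate 1. Cyp2a4, a testosterone 15-hydroxylase, was not called (log2 2.05 ± 0.88, adjusted p = 0.168). It was 60.7 to 1942 CPM in females and 11.8 to 209 CPM in 8 males, with 1994 CPM in male 18 months replicate 5. Without that library the log2 difference was 3.29 (adjusted p = 0.00837). The fit of all 92 libraries, which included that male, also called Cyp2a4 (log2 1.98, adjusted p = 0.0365).

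On the male side stood Cyp4a12a, Cyp4a12b, Cyp2d9, Cyp7b1, Cyp21a1 and Cyp2u1. Cyp4a12a, which makes 20-HETE from arachidonic acid, was 1.14 to 4.23 CPM in females, median 2.26. Among males it was 156 to 478 CPM in 8 animals and 8.96 CPM in replicate 5 at 18 months. All males still lay above all females, and the difference was 111-fold (log2 -6.80 ± 0.59, adjusted p = 2.58e-06). Cyp4a12b, its near-identical neighbour, had log2 -6.87 ± 0.66, which became -2.63 and was no longer called (adjusted p = 0.261) with the low-total female included. The reads of this pair cannot be told apart with certainty. Cyp2d9, the male-specific testosterone 16-hydroxylase, was 0.602 to 24.6 CPM in females and 14.4 to 205 CPM in males (25.2-fold, log2 -4.65, adjusted p = 0.000706), and log2 -5.25 without female 18 months replicate 2. Its lowest male was again replicate 5 at 18 months, and without it the sexes did not overlap. Cyp2u1 had 2 reads over all females and 292 over all males, a ratio of pooled rates of 130 with an exact 95% interval of 35.7 to 1080 for counting error. Cyp3a11, a major drug-metabolising P450, was not called (log2 -1.25, adjusted p = 0.245), and its females ranged from 59.2 to 3500 CPM. In the fit of all 92 libraries Cyp3a11 was called higher in males (log2 -1.32, adjusted p = 0.018).

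Other conjugating families showed smaller or mixed differences. Of 22 glutathione transferases tested, 3 were higher in each sex. Gstp1, which couples glutathione to electrophiles, was 443 to 1103 CPM in females, median 696, and 2117 to 9486 CPM in males, median 7840. The lowest male, replicate 5 at 18 months, was still above all females (8.77-fold, log2 -3.13 ± 0.27, adjusted p = 5.77e-07). Gstp2, a close copy on chromosome 19, was 2.26 to 10.5 CPM against 16.2 to 101 CPM (8.53-fold), and its probe may read Gstp1. Gsta1 was the third male-biased member, and Gstt1, Gstt3 and Mgst3 were higher in females, with Gstt3 at 3.03-fold (adjusted p = 0.0026).

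Glucuronosyltransferases, which attach glucuronic acid, were split 2 and 2 of 18 tested. Ugt1a1, the bilirubin-conjugating enzyme, was 366 to 4878 CPM in females and 383 to 1014 CPM in males, with overlapping ranges (2.6-fold, adjusted p = 0.00876). Ugt2b35 was 2.06-fold higher in males (adjusted p = 0.013), at 172 to 813 CPM in females and 321 to 1278 CPM in males. Its call was lost without the duration block (adjusted p = 0.052) and without both females high in blood and lymphocyte markers (adjusted p = 0.0517). Ugt2b38 was 0 to 0.468 CPM in females and 0 to 6.93 CPM in males (log2 -4.84 ± 1.05, adjusted p = 0.00805), and log2 -7.34 without female 18 months replicate 1. Without male 18 months replicate 5 the Ugt family counted 2 higher in females and 6 higher in males. Carboxylesterases had 2 of 14 genes called, both higher in males, Ces3a (3.56-fold, adjusted p = 0.0114) and Ces3b (2.55-fold, adjusted p = 0.0377). The Ces3b call was lost in 12 of the 18 fits that left out 1 library.

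Among aldehyde and alcohol oxidising enzymes, 4 of 20 were higher in females and 3 higher in males. Aox3, an aldehyde oxidase, was 74.6 to 249 CPM in females and 29.4 to 974.5 CPM in males, median 674 (4.66-fold, adjusted p = 0.00445). Its lowest male was replicate 5 at 18 months, without which the groups did not overlap. Aldh3b3 had 255 reads over the females and 2 over the males, a ratio of pooled rates of 143 with an exact 95% interval of 39.2 to 1190 for counting error. Aldh1b1 was 1.62-fold higher in females, a call lost in the fit of all 92 libraries (adjusted p = 0.247) and without the duration block (adjusted p = 0.0944). The aldo-keto reductases and hydroxysteroid dehydrogenases counted 2 of 24 higher in each sex: Akr1b10 and Akr1d1 in females, Hsd3b2 and Hsd3b3 in males.

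Hsd3b3, a 3-beta-hydroxysteroid dehydrogenase, was 79.9 to 372 CPM in females and 188 to 730 CPM in males (2.67-fold, adjusted p = 0.00311). Hsd3b2 was 12.4 to 107 CPM in females and 11.6 to 418 CPM in males (5.7-fold, adjusted p = 0.00139). The Hsd3b genes on chromosome 3 resemble one another, and the split among them is uncertain. Hsd3b5, the male-specific keto-reducing member, was too low to be tested, at 1.91 ± 2.49 CPM in males (SD, n = 9) and 0.104 CPM on average in females.

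Transporters of organic ions and bile salts gave 4 genes of 20 higher in females and 2 higher in males. Slc22a28 was 0.787 to 59.3 CPM in males, median 44.1, and 0 to 3.18 CPM in females (41-fold, adjusted p = 0.000102). Slc22a26 was higher in females, at 0.573 to 5.06 CPM against 0 to 0.573 CPM (14.5-fold, adjusted p = 0.00396), where the lowest female and the highest male were both at 0.573 CPM. Its difference, log2 3.86, was 4.61 without male 18 months replicate 5. Slco1a4, an organic anion uptake carrier, was 3.78-fold higher in females (adjusted p = 0.00611), a call lost without the duration block (adjusted p = 0.0642). Slco1a1, the male-predominant carrier, was 14.6 to 150 CPM in 8 males, 5.27 CPM in replicate 5 at 18 months and 0.524 to 40.6 CPM in females. It was not called with all males (log2 -1.76, adjusted p = 0.0851) and was called without that one (log2 -1.91, adjusted p = 0.0331). With all males, DESeq2 and the fit of all 92 libraries called Slco1a1 (adjusted p = 0.0369 and 0.0377). Among 18 Abc transporters, Abcb1a and Abcc1 were higher in females and Abcg2, the breast cancer resistance protein, was higher in males (2.44-fold, adjusted p = 0.00175). The Abcg2 call was lost in the fit of all 92 libraries (log2 -0.74, adjusted p = 0.105) and with the low-total female included (adjusted p = 0.433). Abcb1a reached 61 CPM in male 18 months replicate 5, where the other 4 males of that age had 3.16 to 6.36 CPM, and its difference was log2 2.02 with that male and 2.92 without.

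**Figure D2:**
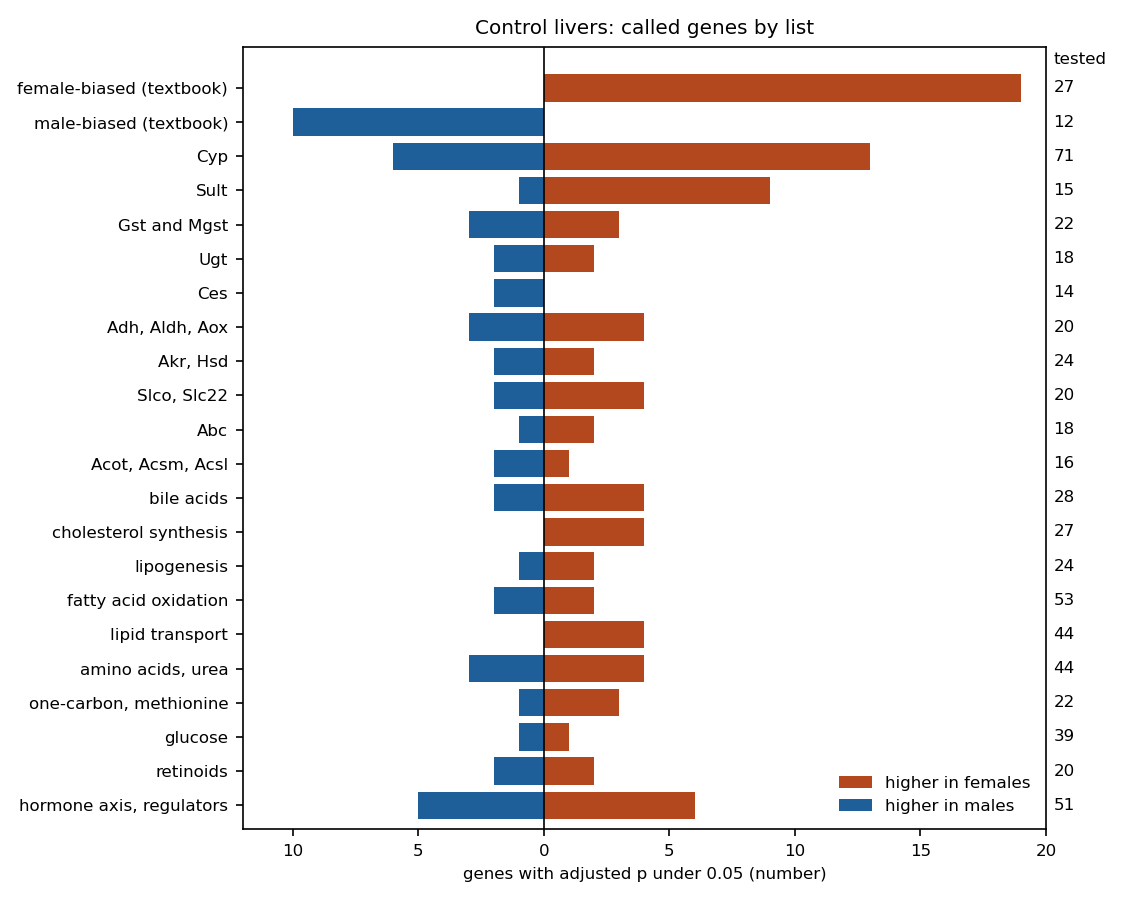
Number of genes called higher in females (bars to the right) or higher in males (bars to the left) in each list shown, at an adjusted p under 0.05, with the number tested at the right edge; a gene can be in more than 1 list. Sulfotransferases lean to females with 9 against 1, cytochromes P450 are split 13 and 6, and the 4 called genes of cholesterol synthesis are on the female side.

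Bile acid genes were mixed: of 28 tested, 4 were higher in females (Akr1d1, Cyp39a1, Slc51b and Slco1a4) and 2 higher in males (Cyp7b1 and Scp2), with a median of 0.12. Cyp7b1, the oxysterol hydroxylase of the alternative bile acid pathway, was 2.19 to 14.8 CPM in females and 2.12 to 165.5 CPM in males, median 100.5 (11.7-fold, adjusted p = 0.000706). Its lowest male was replicate 5 at 18 months, and the other 8 lay above all females. Scp2, a peroxisomal thiolase and sterol carrier, was 860.2 to 1437 CPM in females and 902.5 to 3983 CPM in males, median 2928 (2.48-fold, adjusted p = 0.0005). The size of the Scp2 difference depended on the probe. Tested without summing, its probes differed by log2 -2.71, -2.13, -0.98 and -0.48, the last not called (adjusted p = 0.0815). Cyp7a1, the rate-limiting enzyme of the classical pathway, was not called (log2 0.69, 95% interval -0.39 to 1.78, adjusted p = 0.491).

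In cholesterol synthesis 4 of 27 genes were called (14.8%, against 7.55% of all genes), all higher in females, and the median was 0.42. These were Fdft1, Hmgcs1, Mvk and Pmvk, enzymes of the mevalonate and squalene steps. Fdft1, squalene synthase, was 266 to 1298 CPM in females and 228 to 436 CPM in males (1.86-fold, adjusted p = 0.00747). Mvk was 1.64-fold and Pmvk 1.49-fold higher, and the ranges of all 4 overlapped. In the fit of all 92 libraries Mvk and Pmvk were no longer called (adjusted p = 0.0522 and 0.0564). At 0.05 mg/kg, in other animals, the median of the list was 0.01, with Fdft1 at log2 0.18 and Mvk at 0.36, neither called (adjusted p = 0.959 and 0.811).

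Lipid genes added several larger differences. Elovl3, an elongase of very long chain fatty acids, was 9.23 to 29.7 CPM in females and 9.99 to 2161 CPM in males, median 848 (44.5-fold, log2 -5.48 ± 0.78, adjusted p = 0.000448). Its lowest male was replicate 5 at 18 months, and the other 8 were above all females. Fasn, fatty acid synthase, and Thrsp, a lipogenic regulator, were higher in females at 2.18-fold and 2.44-fold (adjusted p = 0.0448 and 0.0397). Female 18 months replicate 5 was the highest library in both, with 466 CPM of Fasn where the other females of that age had 70.5 to 102 CPM. Without it the Fasn difference fell to log2 0.60 and was no longer called, and the Fasn call was lost in 11 of the 18 fits that left out 1 library.

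Lipid transport had 4 of 44 genes called, 9.09% against 7.55% of all genes. All 4 were higher in females, and the median of the list was 0.08. Cd36, the fatty acid translocase, was 26.1 to 110 CPM in females, median 52.3, and 4.32 to 34.4 CPM in males, median 9.17 (5.68-fold, log2 2.51 ± 0.29, adjusted p = 2.48e-05). Its highest male was replicate 5 at 18 months, and without it the groups did not overlap. Tm6sf2, needed for lipoprotein secretion, was 2.42-fold higher (adjusted p = 0.000396) and Lipg, endothelial lipase, 2.92-fold (adjusted p = 0.0218), both with overlapping ranges.

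Fatty acid oxidation gave 2 genes in each direction of 53 tested, the same 7.55% as among all genes, with a median of 0.05. Acot3, a peroxisomal acyl-CoA thioesterase, was 45.7 to 401 CPM in females and 2.07 to 21.8 CPM in males, with no overlap (22-fold, log2 4.46 ± 0.57, adjusted p = 0.000159). Hao2, a peroxisomal hydroxyacid oxidase, was 6.43 to 256 CPM in females and 0.343 to 5.88 CPM in males, also with no overlap (35.9-fold, log2 5.17, adjusted p = 0.000448), and log2 4.40 without female 18 months replicate 1. Nudt7, a coenzyme A diphosphatase of peroxisomes, was 40.4 to 85.9 CPM in females and 33 to 394.5 CPM in males, median 312 (4.91-fold, adjusted p = 0.000156). Acsl1 and Acsl6, acyl-CoA synthetases that activate fatty acids, were called higher in males. They were listed together with the Acot and Acsm families, and that list also holds Acot3, higher in females. Acsl1 was 825 to 1998 CPM in females and 735 to 3545 CPM in males (1.74-fold, adjusted p = 0.0441), a call lost in 15 of the 18 fits that left out 1 library. Acsl6 was 0 to 1.18 CPM in females and 0.121 to 4.76 CPM in males (9.51-fold, adjusted p = 0.0314), a call lost in 6 of them. Ppara, the nuclear receptor that drives this pathway, was not called (log2 0.08, 95% interval -0.31 to 0.48, adjusted p = 0.849).

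The share of genes called was 15.9% in amino acid and urea metabolism, 18.2% in one-carbon metabolism and 5.13% in glucose metabolism, against 7.55% of all genes. Of 44 genes of amino acid and urea metabolism, 4 were higher in females (Cps1, Glul, Got1 and Gpt) and 3 higher in males (Ftcd, Gpt2 and Tdo2). Got1, cytosolic aspartate aminotransferase, was 34.4 to 79 CPM in females and 8.41 to 40 CPM in males (2.98-fold, adjusted p = 0.00481). Tdo2, which opens the tryptophan ring, was 1.71-fold higher in males (adjusted p = 0.0194), a call lost without the duration block (adjusted p = 0.0527) and without both females high in blood and lymphocyte markers (adjusted p = 0.0567). In the one-carbon list of 22 genes, Mat1a, which makes S-adenosylmethionine, was 2.1-fold higher in females (adjusted p = 0.0144). Pemt, which uses that product to make phosphatidylcholine, was 277 to 1355 CPM in females and 161 to 485 CPM in males (2.03-fold, adjusted p = 0.00396). Gclc, the catalytic subunit that starts glutathione synthesis, was 1.68-fold higher in males (adjusted p = 0.00928). In glucose metabolism 1 gene of 39 was called each way, Slc2a9 and Gbe1. Of the 18 fits without 1 library, the Slc2a9 call was lost in 11 and the Gbe1 call in 10. The Slc2a9 call was also lost without the duration block (adjusted p = 0.143).

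Of 20 retinoid genes 2 were higher in each sex. Rdh16f2, a retinol dehydrogenase, was 78.5 to 289.5 CPM in females and 4.67 to 169 CPM in males (3.47-fold, adjusted p = 0.00805). The highest male was replicate 5 at 18 months, and without it the groups did not overlap. Adh1 was 1.52-fold higher in females (adjusted p = 0.022) and Aldh1a1, retinal dehydrogenase, 2.62-fold higher in males (adjusted p = 0.0162), a call lost without both females high in blood and lymphocyte markers (adjusted p = 0.0505).

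Regulators of the hormone axis were tested as a list of 51 genes, of which 6 were higher in females (Cux2, Esr1, Prlr, Srebf2, Tox and Trim24) and 5 higher in males (Bcl6, Egfr, Foxa1, Nr0b2 and Zbtb20). Cux2, the female-biased repressor, was 16.4 to 124 CPM in females, median 44.8, and 0.0686 to 1.9 CPM in males, median 0.743. All females lay above all males, and the difference was 54.7-fold (log2 5.77 ± 0.49, adjusted p = 9.94e-07). Bcl6, whose upstream sequence is printed above, was 14.4 to 69.9 CPM in females, median 39.8, and 55.8 to 383 CPM in males, median 159 (4.34-fold, log2 -2.12 ± 0.39, adjusted p = 0.00388). The ranges overlapped at their edges, with male 18 months replicate 5 at 159 CPM, the male median.

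The receptors Prlr, for prolactin, and Esr1, for estrogen, were higher in females. Prlr was 63.7 to 557 CPM in females and 24.5 to 89.7 CPM in males (3.56-fold, adjusted p = 0.000548). Esr1 was 25.5 to 67.1 CPM in females and 4.68 to 26.4 CPM in males (3.77-fold, adjusted p = 0.000219), with the single overlapping male at 9 months, replicate 2. Growth hormone receptor and STAT5B, which transmit the signal, were not called. Ghr differed by log2 -0.18 (95% interval -0.71 to 0.34, adjusted p = 0.732) and Stat5b by log2 0.06 (95% interval -0.31 to 0.44, adjusted p = 0.884).

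For orientation, 2 lists of genes known from the literature on other mice to be female-biased or male-biased were counted. Of 27 female-biased genes tested, 19 were called, all higher in females, with a median of 3.86. Of 12 male-biased genes tested, 10 were called, all higher in males, with a median of -4.10. Over all genes tested 7.55% were called (4% higher in females and 3.54% higher in males), and the median was 0.02. Like the other lists, these 2 were chosen with earlier results of these data known.

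The sex difference was then set out for each duration. In the 9-month animals alone 21 of the 550 genes were called higher in females and 20 higher in males, against 1.58% of all genes (0.755% and 0.825%). In the 18-month animals alone the counts were 48 and 16, against 3.53% of all genes (2.47% and 1.07%). The 18-month libraries were deeper and their group sizes were 4 females and 5 males, the reverse of 9 months, so the 2 sets of counts do not compare durations. The 108 called genes had the same direction at both durations, which is a description, since these libraries had chosen them.

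**Figure D3:**
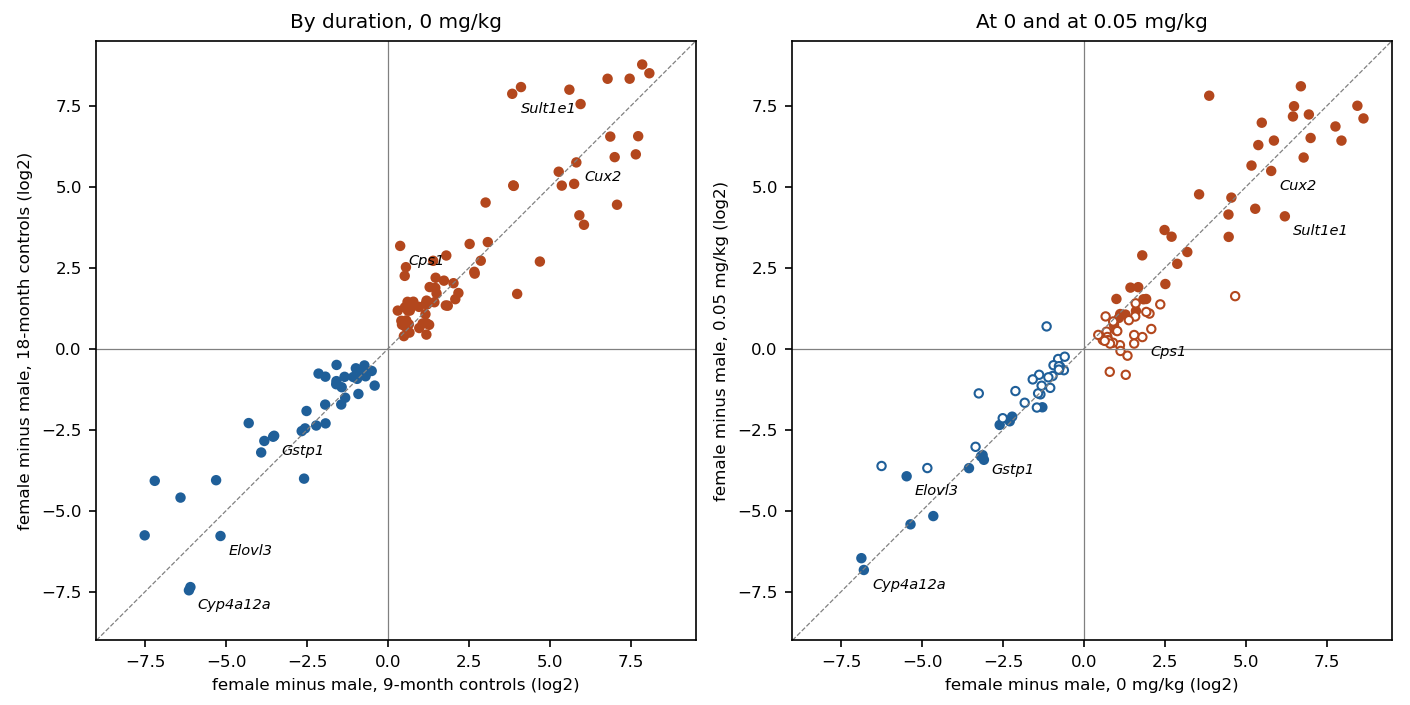
Female minus male log2 differences of the genes called at 0 mg/kg: left, 18 months against 9 months for 108 genes; right, 0.05 mg/kg against 0 mg/kg for 107 genes, where open symbols were not called at 0.05 mg/kg; red, higher in control females, blue, higher in control males, dashed line, equal differences. Cps1 lies far above the dashed line on the left, at 3.17 against 0.37, and on the right 5 points lie across the zero line.

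Tested directly as an interaction of sex with duration, 1 gene of the 550 was called, with a value above 0, against 0.0347% of all genes (0.026% above and 0.00868% below 0). This was Cps1, the carbamoyl phosphate synthetase that starts the urea cycle, with an interaction of log2 2.80 ± 0.42 (adjusted p = 0.0131). At 9 months it was 8.62, 12.3, 15.3, 17.8 and 22.3 CPM in females and 7.95, 9.95, 11.5 and 17.8 CPM in males, with overlapping ranges. At 18 months it was 37.6, 48.1, 52.3 and 58.3 CPM in females, and 2.60, 5.64, 6.06, 6.24 and 6.69 CPM in males, with none. The sex difference was log2 0.37 at 9 months (adjusted p = 0.579) and 3.17 at 18 months (adjusted p = 5.47e-06). Cps1 was the sole listed gene called in each of the 18 fits that left out 1 library. The call was lost with all 92 libraries in 1 fit (adjusted p = 0.109) and without both females high in blood and lymphocyte markers (log2 2.72, adjusted p = 0.0799). In 58 listed genes, 10.5%, the unadjusted p of the interaction was under 0.05, against 8.57% of all genes, and DESeq2 called 7 listed genes.

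Animals given 0.05 mg/kg, the lowest dose, gave an independent set of 8 females and 9 males, though they are treated animals. Of 552 listed genes tested, 42 were higher in females and 15 higher in males, against 1.51% of all genes called (0.826% and 0.687%). Of the genes called in controls, 107 could be tested, and 102 had the same direction. Of the 42 higher in females 37 had also been called higher in control females, and of the 15 higher in males 13 had also been called in control males, out of 70 and 38 in controls. The 5 with an opposite, uncalled difference were Abcc1, Fasn, Gatm, Nr0b2 and Thrsp. In Fasn the difference was log2 -0.07 and in Thrsp -0.81. Male 18 months 0.05 mg/kg replicate 1 stood apart, with a macrophage marker sum of 5550 CPM against at most 437 CPM in the other 8 males. Its pericentral sum was 377 CPM against at least 4820 CPM. Without it 52 of 554 listed genes were higher in females and 44 higher in males, against 3.72% of all genes called (1.57% and 2.15%).

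At 0.05 mg/kg Sult2a1 differed by log2 7.16 ± 0.24 (adjusted p = 1.69e-12), Cux2 by 5.48 ± 0.55 (adjusted p = 9.99e-06) and Gstp1 by -3.29 ± 0.35 (adjusted p = 1.28e-05). Cyp2b9, whose control difference was reduced by 1 male, differed by log2 4.76 ± 0.38 (adjusted p = 3.53e-07). Cyp2a4 and Hsd3b5, not called and not tested in controls, were called here at log2 3.85 ± 0.64 (adjusted p = 0.00239) and -6.13 ± 1.17 (adjusted p = 0.00677), the latter -7.38 without female 9 months 0.05 mg/kg replicate 3. Bcl6 kept its direction at log2 -1.31 and was not called (adjusted p = 0.28).

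The control difference was also set beside the highest dose, 5 mg/kg, as an interaction of sex with dose over 36 libraries. This comparison shares the 18 control libraries with the results above, so the genes' values are given side by side and no agreement between the comparisons is counted. Of 569 listed genes tested, 27 had an interaction above 0 (the female minus male difference moved toward females) and 19 below 0, against 2.44% of all genes (1.03% and 1.41%). Without the control male 18 months replicate 5 these were 64 and 42 of 568, against 7.4% of all genes (2.64% and 4.76%). Without both control females high in blood and lymphocyte markers they were 9 and 15 of 567, against 0.899% of all genes (0.292% and 0.607%). Male 9 months 5 mg/kg replicate 4 had an Afp of 144 CPM, where the other 7 males at that dose had at most 7.6 CPM, and a pericentral sum of 463 CPM against at least 3740 CPM. Without it the counts were 25 and 21, against 2.17% of all genes (0.792% and 1.38%). Male 9 months 5 mg/kg replicate 5 had a Y-linked sum of 13.4 CPM, where the other 7 males at that dose had 43.4 to 79 CPM, and without it the counts were 22 and 18, against 1.68% of all genes (0.602% and 1.08%). Without control male 18 months replicate 2, 12 listed genes were below 0.

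**Figure D4:**
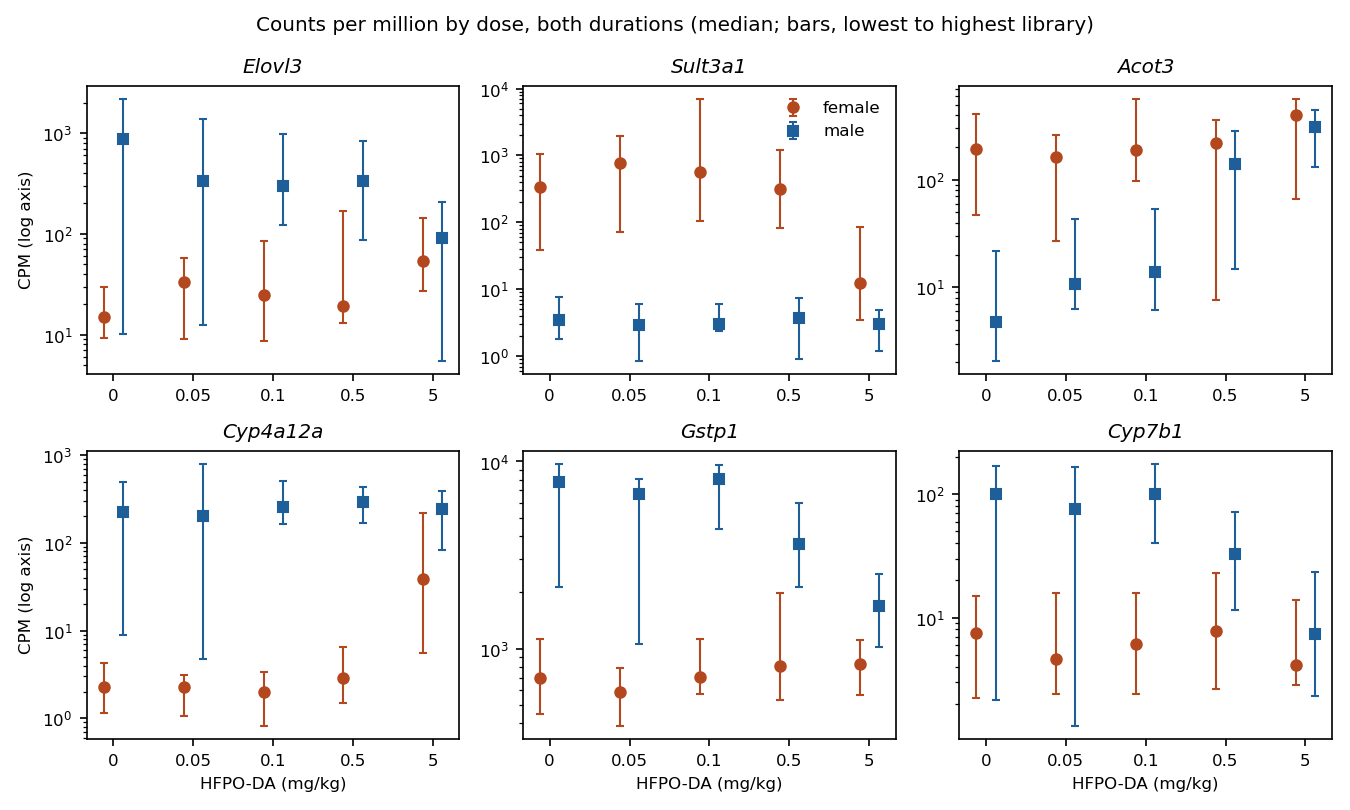
Median CPM on a log axis by HFPO-DA dose for 6 genes, females as circles and males as squares, 8 to 10 libraries per point with both durations together, bars from the lowest to the highest library. At 5 mg/kg the female Sult3a1 median is 12.4 CPM against 337 CPM at 0 mg/kg, the female Cyp4a12a median is 38.6 CPM, and the male Elovl3, Gstp1, Cyp7b1 and Acot3 medians are nearer to the female ones than at 0 mg/kg.

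Sult3a1 in females had medians of 337 CPM at 0 mg/kg and 12.4 CPM at 5 mg/kg, with males at 3.44 and 3.04 CPM (interaction log2 -3.54 ± 0.77, adjusted p = 0.0125).

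A change with dose within a sex was not tested here. For Cyp4a12a the medians that lay far apart were those of females. The female median was 2.26 CPM at 0 mg/kg and 38.6 CPM at 5 mg/kg, range 5.53 to 218 CPM, and the male median was 224 and 241 CPM (interaction log2 4.62 ± 0.84, adjusted p = 0.00301). For Gstp1 they were those of males, with medians of 7778 CPM at 0 mg/kg, 3616 CPM at 0.5 mg/kg and 1693 CPM at 5 mg/kg, while the female medians were 582 to 822 CPM (interaction log2 2.04 ± 0.33, adjusted p = 0.000645). The male Cyp7b1 median was 99.8 CPM at 0 mg/kg and 7.35 CPM at 5 mg/kg, and the female median 7.44 and 4.11 CPM (interaction log2 2.78 ± 0.70, adjusted p = 0.0295). That call was lost without female 9 months 5 mg/kg replicate 3, and without both control females high in blood and lymphocyte markers (adjusted p = 0.0805). Elovl3 had the largest interaction above 0 among the named genes (log2 5.06 ± 0.87, adjusted p = 0.00186), with male medians of 863 and 89.8 CPM and female medians of 14.9 and 54.3 CPM at 0 and 5 mg/kg. Acot3 in males had medians of 4.78 CPM at 0 mg/kg, 141 CPM at 0.5 mg/kg and 309.7 CPM at 5 mg/kg, and females had 193 and 395.5 CPM at 0 and 5 mg/kg (interaction log2 -4.08 ± 0.63, adjusted p = 0.000645). Cux2 had no called interaction (log2 -1.77 ± 0.82, adjusted p = 0.238), with female medians of 45.5 and 24.3 CPM and male medians of 0.746 and 0.622 CPM.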

How the data were processed

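Raw counts per probe were deposited by the authors in 1 table with a column for each of 92 animals, and all 92 columns matched a sample in the labels. The tools used, bcl2fastq 2.17.1.14 and Bowtie, are those named in the submitters' processing notes, and the build and the probe list are not given in the sources used here. In TempO-Seq, 2 oligonucleotides ligate on a transcript and are counted, so levels are compared within a gene and not between genes. The 30146 probe rows were summed by symbol to 21400 genes, of which 20967 were placed on a chromosome with RefSeq's mouse annotation.

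Genes were filtered with filterByExpr, normalised by TMM and tested with edgeR 4.0.16 in R 4.3.3 by its quasi-likelihood test (robust fit), with p-values adjusted by Benjamini-Hochberg over all genes tested. Duration was an additive block. SE was derived from the test, as the size of the fitted log2 difference divided by the square root of its F statistic. The 95% intervals on log2 differences were made from this SE with a normal quantile. Pooled animals, litters and batches are not named in the labels, so p-values measure the spread between these animals. The common biological coefficient of variation was 0.472. On simulated counts of 11246 genes for the comparison of females with males, 56% of 100 genes changed 2-fold and 83% of 100 changed 4-fold were recovered, with 8 false calls. These counts were drawn independently, with no duration effect and no library set apart, and the changed genes had to pass a count minimum. The shares therefore do not carry over to data with libraries that stand apart. CPM values of the controls use the normalisation of the 18 libraries, and CPM values by dose that of all 92. No molecular identifiers are described, so intervals on counts cover counting error only. Within a group, Pearson's r of log2(CPM + 1) across genes ran from 0.903 to 0.973.

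The genes, lists and animals were chosen with earlier results of these data known. Genes were named as follows: up to 3 called genes per list, taken by adjusted p, with a mean of at least 10 counts, the 4 largest called differences each way, genes called in the interaction with duration, and 23 sex-biased or regulatory genes whatever their values. The result of 1 named gene is not reported here. Any other gene was chosen after its values were seen. Alternatives were RLE normalisation, no filter, DESeq2 1.42.0, all 92 libraries in 1 fit, the low-total female included, probes without summing, no duration block, stricter thresholds, each duration alone, and each library left out in turn. Leaving out 2 females high in blood and lymphocyte markers was added after seeing the data.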

Additional observations from a re-analysis of the deposited data

Results flagged for a closer look

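Within groups of 4 or 5 control libraries, 289 sets of a named gene and a group were checked for a library far from the rest of its group (Dixon's criterion), and 30 had one, where chance gives about 1 in 20. Male 18 months replicate 5 was that library in 9 of the 30. It was the highest of its group for Abcb1a (61 CPM, others at most 6.36), Cyp17a1 (21.3, others at most 1.27), Cyp2a4 (1994, others at most 209), Cyp2b9 (57.7, others at most 8.64), Sult2a1 (395, others at most 47.3) and Sult2a5 (4.79, others at most 0.6). It was the lowest for Cps1 (2.60, others at least 5.64), Cyp2d9 (14.4, others at least 162) and Cyp7a1 (4.18, others at least 155). The 6 genes in which it was high include 5 called higher in females. The part of this library's fetal, pericentral, periportal and other marker levels in these values was not tested.

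Male 9 months replicate 2 was the highest of its group for Cyp2a4 (151 CPM, others at most 34), Cyp2b13 (1.34, others at most 0.172), Esr1 (26.4, others at most 9.27), Got1 (39.95, others at most 11.8) and Ugt1a1 (698, others at most 428). Among the other males, Bcl6 was 383 CPM in 18 months replicate 3, Hsd3b5 was 5.02 CPM in 18 months replicate 2, Ces3b was 132 CPM and Sult3a1 was 7.61 CPM in 9 months replicate 3, and Scp2 was 2372 CPM in 9 months replicate 1. Female 18 months replicate 5 was the highest of its group for Fasn (466 CPM), Thrsp (49 CPM) and Scp2 (1437 CPM). Sult1e1 reached 2262 CPM in female 18 months replicate 4 (others at most 385) and Sult2a6 31.4 CPM in replicate 1 (others at most 3.7). At 9 months, female replicate 5 was the highest for Cux2 (124 CPM), Cyp2d9 (12 CPM) and Mvk (81.5 CPM). Female replicate 4 was the lowest for Fmo2 (10.8 CPM) and Stat5b (9.05 CPM) and the highest for Lipg (34.4 CPM).

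In controls the sex difference of Cps1 was larger at 18 than at 9 months by log2 2.80, by the interaction test. The sex difference also moved between 0 and 5 mg/kg, by the interaction test, in 19 named genes. It moved toward females, on the log2 scale, in Elovl3 (5.06), Cyp4a12a (4.62), Cyp4a12b (4.09), Cyp7b1 (2.78), Hsd3b2 (2.69), Gstp2 (2.39), Ces3b (2.32), Aox3 (2.30), Gstp1 (2.04), Hsd3b3 (1.65) and Scp2 (1.15). It moved toward males in Sult2a6 (-9.93), Sult1e1 (-4.50), Acot3 (-4.08), Sult3a1 (-3.54), Cd36 (-2.81), Cyp2c39 (-2.22), Cyp3a41a (-1.59) and Abcc1 (-1.46). Of 36 fits that each left out 1 library, the call was lost in 22 for Cyp3a41a, 21 for Sult1e1, 18 each for Hsd3b2 and Hsd3b3, 14 for Abcc1 and 1 each for Cyp2c39 and Cyp7b1. The value for Sult1e1 was -2.92 without control female 18 months replicate 4. Without the duration block the calls of Abcc1, Cyp2c39, Cyp3a41a, Hsd3b2, Hsd3b3 and Sult2a6 were lost, with Sult2a6 at -8.06 (adjusted p = 0.0518). At 5 mg/kg the male Sult2a6 median was 0.35 CPM and the highest male had 28.5 CPM. In the fit of all 92 libraries the calls of Abcc1 and Cyp4a12b were lost, with Cyp4a12b at 0.68 (adjusted p = 0.817). Without both control females high in blood and lymphocyte markers, the calls of Abcc1, Aox3, Ces3b, Cyp3a41a, Cyp4a12b, Cyp7b1, Hsd3b2, Hsd3b3 and Scp2 were lost, and the Cps1 call as well.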

How the results depend on the processing

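In this part, counts are given as higher then lower in females, or above then below 0 for interactions, and listed genes are the metabolism genes. No paired analysis was possible because the labels give each animal its own number and the groups share none. For females against males at 0 mg/kg, DESeq2 called 918 genes higher and the fit of all 92 libraries 1120. An adjusted p under 0.01 left 139 and 135 genes (listed genes 39 and 23), a fold of at least 1.5 left 256 lower, 9 months alone gave 87 and 95 (listed 21 and 20), and 18 months alone 284 and 123 (listed 16 lower). Leaving out 1 library gave 298 (without female 18 months replicate 2) to 737 (without male 18 months replicate 5) and 293 to 534 genes, and 57 to 89 and 29 to 55 listed genes.

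In the interaction with duration, DESeq2 called 59 and 5 genes (listed 7 above), an adjusted p under 0.01 left 1 and 0 (listed 0), and the fit of all 92 libraries had 0 below and 0 listed. Leaving out 1 library gave 2 to 12 genes above (12 without female 18 months replicate 1) and 0 to 1 below (0 without female 18 months replicate 5). At 0.05 mg/kg, DESeq2 called 145 and 174 genes (listed 28 lower), the fit of all 92 libraries 135 lower (listed 23 lower), and an adjusted p under 0.01 left 63 and 49. Leaving out 1 library there gave 75 to 183 and 56 to 250 genes, and 39 to 52 and 14 to 44 listed genes.

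In the interaction with dose, DESeq2 called 256 and 496 genes (listed 41 and 34), the fit of all 92 libraries 215 and 454 (listed 42 and 29), and the fit without the duration block 62 and 105 (listed 17 above). An adjusted p under 0.01 left 22 and 31 (listed 8 and 7). Leaving out 1 library gave 65 to 332 and 111 to 597 genes, and 18 to 64 and 12 to 42 listed genes, with the highest counts without control male 18 months replicate 5.

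Leaving out both control females high in blood and lymphocyte markers was chosen after seeing the data. It left 1 and 0 genes in the interaction with duration (listed 0), 37 and 77 in that with dose (listed 9 above), and 343 and 278 genes in the control comparison. There it ended the calls of Abcb1a, Acsl1, Aldh1a1, Ces3b, Fasn, Gbe1, Tdo2, Thrsp and Ugt2b35, and Ghr, not called, was 0.0098.

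Among named genes, those that changed sign in the control comparison were not called in the main fit. At 9 months alone Cyp7a1 was -0.14 and Stat5b -0.014, and at 18 months alone Ghr was 0.38 and Ppara -0.058; none was called. Leaving out 1 library moved Ppara between -0.00024 and 0.18. The dose interaction of Cyp4a12b, called above 0 in the main fit, was -0.55 with the low-total female included. In the fit of all 92 libraries it was 0.68 (adjusted p = 0.817), and it was called in neither. In the control comparison, calls lost without some single library were those of Abcb1a, Acsl1 (15 of 18), Acsl6, Ces3b, Fasn, Fmo1, Gbe1, Slc2a9 and Thrsp, and the cause was not tested. At 0.05 mg/kg they were Mat1a (14 of 17) and Fmo2 (3), and in the dose interaction Cyp3a41a (22 of 36), Sult1e1 (21), Hsd3b2 and Hsd3b3 (18 each), Abcc1 (14), Cyp2c39 and Cyp7b1 (1 each). Control calls lost in the fit of all 92 libraries were Abcg2, Aldh1b1, Mvk, Pmvk and Thrsp, with the low-total female Abcg2, Acsl1, Cyp4a12b and Thrsp, without a low-count filter Abcb1a, Ces3b, Fasn and Thrsp, with probes not summed Fasn, and without the duration block Abcb1a, Acsl1, Aldh1b1, Fasn, Slc2a9, Slco1a4, Tdo2 and Ugt2b35. Control calls gained in the fit of all 92 libraries were Cyp2a4, Cyp3a11 and Slco1a1, and with DESeq2 Slco1a1. Depth limits Hsd3b5, Sult2a6, Aldh3b3 and Cyp2u1, which had few reads in 1 or both sexes.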
